A study of Mus musculus with 15 samples.

Results

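An antibody against CTLA4 added to late ablation of myofibroblasts was examined in 6 bead arrays of mouse pancreatic tumours, 3 with the antibody and 3 without it, out of 15 arrays in the study. The members were chosen by title: the 3 arrays that name late ablation together with anti-CTLA4 were set against the 3 that name late ablation alone. Both groups were pancreatic ductal adenocarcinoma (PDAC) from mice positive for the αSMA-tk transgene of mixed C57BL/6 and Balb/c descent, and both had received ganciclovir once PDAC was present. The transgene places a thymidine kinase under the Acta2 promoter, that of the alpha smooth muscle actin gene, so ganciclovir acts on any dividing cell that uses this promoter, myofibroblasts among them. The group without the antibody is therefore itself labelled as ablated, and no array carried anti-CTLA4 without ganciclovir. The labels do not give the dose or schedule of the antibody, and do not say in words whether every array is of a different animal. The p-values rest on the spread between these arrays. The 3 anti-CTLA4 arrays were deposited in a table of their own and the other 12 in another, so that antibody and table cannot be told apart in any value below. The comparison asks what differed with the antibody among tumours labelled as late ablation.

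CTLA4 is an inhibitory receptor that activated T cells and regulatory T cells carry, and it competes with CD28 for CD80 and CD86 on antigen-presenting cells. Blocking it releases T cells that recognise peptide on molecules of the major histocompatibility complex (MHC), where class I displays peptides cut by the proteasome and class II displays peptides taken up from outside the cell. Interferon gamma from such T cells is known to induce the immunoproteasome subunits, the peptide transporter and MHC genes. Pancreatic tumours are known as poor in T cells and rich in stroma and myeloid cells. In bulk tumour RNA, fewer cells of a type and less RNA per cell cannot be told apart.

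A single feature passed the test between the groups, and it was a gene inside the MHC. D17H6S56E-5 lies next to Vars in the class III part of the MHC on chromosome 17 and was far lower on the anti-CTLA4 arrays. Other MHC genes without overlap between the groups included the class II genes H2-Eb1 and H2-Aa, both near background on the anti-CTLA4 arrays, and the immunoproteasome gene Psmb9, which was higher there, and none of these passed. The promoters of these 4 genes are shown because the MHC results below describe them most closely. They are credited to RefSeq on build GRCm38.p6 and cover the annotated gene start and the bases before it, 5′ to 3′ on the strand of the gene, and capitals mark the motif matches described after them.
D17H6S56E-5, chr17:35000697-35000996, minus strand: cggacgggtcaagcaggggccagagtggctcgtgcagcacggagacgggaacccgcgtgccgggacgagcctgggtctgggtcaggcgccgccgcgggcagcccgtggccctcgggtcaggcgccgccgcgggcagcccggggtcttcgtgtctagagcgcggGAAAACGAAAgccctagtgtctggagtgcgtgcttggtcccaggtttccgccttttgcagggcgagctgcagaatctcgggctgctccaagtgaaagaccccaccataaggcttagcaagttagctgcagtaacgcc
Psmb9, chr17:34187281-34187580, minus strand: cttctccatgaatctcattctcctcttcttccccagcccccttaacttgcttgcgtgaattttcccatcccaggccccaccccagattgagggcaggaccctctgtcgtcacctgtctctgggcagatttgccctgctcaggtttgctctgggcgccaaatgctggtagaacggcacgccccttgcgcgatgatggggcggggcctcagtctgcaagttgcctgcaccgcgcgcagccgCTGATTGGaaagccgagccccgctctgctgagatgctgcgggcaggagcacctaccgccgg
H2-Aa, chr17:34287774-34288073, minus strand: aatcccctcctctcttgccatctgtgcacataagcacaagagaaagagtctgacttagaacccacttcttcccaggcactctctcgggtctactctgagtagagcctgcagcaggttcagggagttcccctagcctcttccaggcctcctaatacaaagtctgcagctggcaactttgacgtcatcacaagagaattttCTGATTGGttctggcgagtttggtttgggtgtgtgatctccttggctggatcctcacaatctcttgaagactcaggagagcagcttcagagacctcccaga
H2-Eb1, chr17:34305617-34305916, plus strand: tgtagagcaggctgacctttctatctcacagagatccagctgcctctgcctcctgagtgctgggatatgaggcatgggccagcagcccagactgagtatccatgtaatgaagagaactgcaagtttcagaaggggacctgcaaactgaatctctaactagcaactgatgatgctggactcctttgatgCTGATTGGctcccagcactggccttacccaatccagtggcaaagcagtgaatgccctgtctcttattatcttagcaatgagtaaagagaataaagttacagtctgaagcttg
The motifs searched on both strands were GAAA followed after any 2 bases by GAAA, a paired repeat of the kind interferon regulatory factors bind, and CTGATTGG, the Y box of MHC class II promoters, which holds an inverted CCAAT box. The first occurs in 3.44% of the 32851 promoters of the same length in the table, and of these 4 it is found in the D17H6S56E-5 promoter alone. The Y box occurs in 4.1% of all promoters and once each in those of Psmb9, H2-Aa and H2-Eb1. Among the 65 tested genes of the MHC region that had a promoter in the table, 16 held the Y box and 2 the paired repeat. These matches are descriptions of the reference sequence and not evidence of binding.

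All values are log2 normalized signal of 1 probe per gene, the brightest where a gene has several, and all differences are log2, anti-CTLA4 with late ablation minus late ablation, with 3 arrays per group and the standard error (SE) of the fit. Values are given in the order of arrays 1, 2 and 3, and detected means a detection p-value under 0.05. Of 45281 probes, 39.1% to 39.4% were detected on the anti-CTLA4 arrays and 39.5% to 40.8% on the late ablation arrays, and the median unnormalized signal was 95.2 to 142.1 and 99 to 135.8. Rank correlations between arrays were 0.924 to 0.964 within the anti-CTLA4 group, 0.926 to 0.949 within late ablation and 0.913 to 0.954 between them. Anti-CTLA4 arrays 2 and 3 matched each other best, whereas array 1 matched late control array 2 best (0.942). Each late ablation array also matched a late control array best (0.972, 0.963 and 0.95), so such a match does not set array 1 apart. Xist, the transcript of the inactive X chromosome, was high on 1 array of each group (11.05 on anti-CTLA4 array 2 and 9.83 on late ablation array 1) and at most 5.08 on the other 4, while the Y-linked Eif2s3y was 8.94 to 9.83 on those 4, so that each group held arrays of at least 2 animals. The markers fixed for the labelled tissue, Krt19, Krt8, Krt18 and Muc1 of ductal tumour, Acta2, Col1a1 and Dcn of stroma, Cpa1 and Prss2 of acinar cells and Ins2 and Gcg of islets, were detected on all 6 arrays. Alb of liver, Ckm of muscle and Fabp2 of intestine were detected on none of the 6, and Adipoq of fat on 1 anti-CTLA4 array.

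Acta2, whose promoter drives the ablation in both groups, was 9.66, 11.53 and 11.50 with the antibody and 12.55, 12.22 and 10.56 without it. Anti-CTLA4 arrays 2 and 3 lay inside the range of the late ablation arrays and array 1 lay under it. The difference of -0.88 (SE 0.785) did not pass (adjusted p = 0.826, exact two-sided permutation p = 0.4, where 3 against 3 arrays cannot go below 0.1). The late control arrays averaged 11.82 ± 1.31 and the late ablation arrays 11.77 ± 1.06 (SD, n = 3), so these means were alike. Whether ablation lowered Acta2 was not tested here.

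Over 15098 features, of which 11924 carry a gene symbol, 1 had an adjusted p under 0.05 (0.00662%), lower with anti-CTLA4 (0.00662%), and 0 were higher (0%). An unadjusted p under 0.05 was met by 1172 features (7.76%), against 755 by chance, and these split into 613 higher (4.06%) and 559 lower (3.7%). In 1558 features (10.3%) the 3 anti-CTLA4 values did not overlap the 3 late ablation values, 756 of them higher (5.01%) and 802 lower (5.31%). Chance alone separates 3 against 3 arrays at a rate of 0.1, so this share was near that of chance. The split of small p-values moved between settings: 52.3% of them were higher here, 34.3% with median scaling and 76.9% in the authors' series values, which may differ in more than scaling. The median difference over all features was -0.005, and the 5th and 95th percentiles were -0.63 and 0.62.

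**Figure D1:**
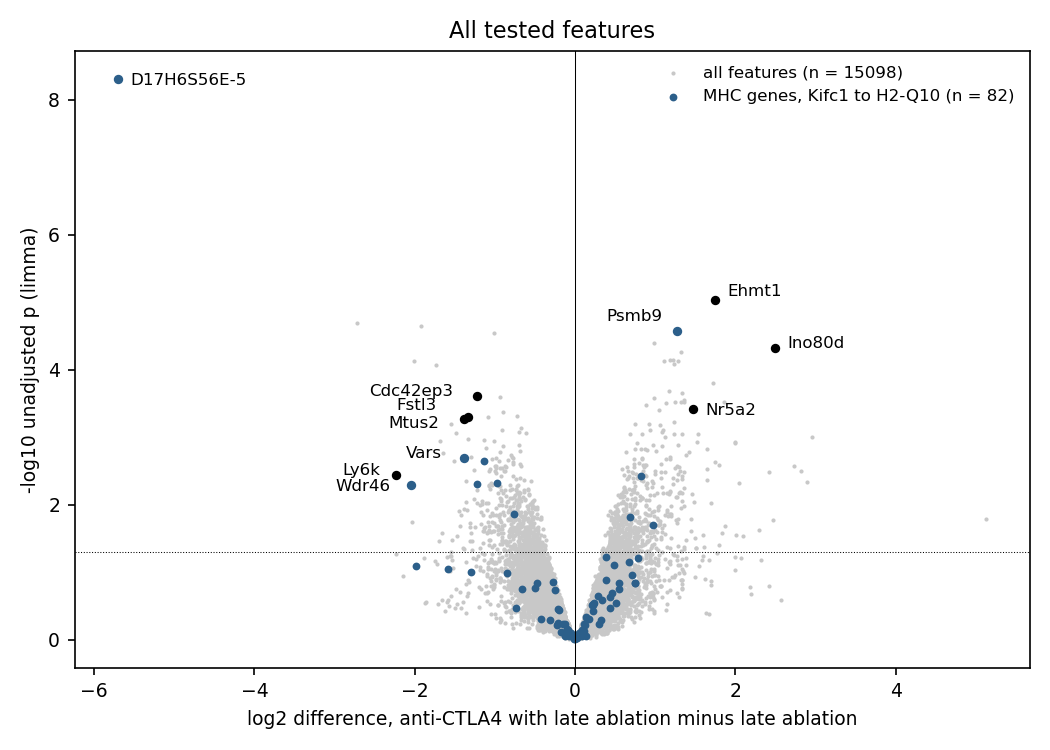
Each of the 15098 features by its log2 difference (x axis, anti-CTLA4 with late ablation minus late ablation) and the negative log10 of its unadjusted limma p (y axis), with the 82 tested genes of the MHC in blue and the dotted line at an unadjusted p of 0.05. D17H6S56E-5 lies alone at a difference of -5.70, away from both arms of the cloud.

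D17H6S56E-5 was 4.49, 4.52 and 4.90 on the anti-CTLA4 arrays and 9.28, 11.49 and 10.22 on the late ablation arrays. It was not detected on any anti-CTLA4 array and was detected on all 12 others, whose values ran from 9.28 to 11.49, so the groups lay far apart. The means were 4.64 ± 0.232 and 10.33 ± 1.11 (SD, n = 3), the difference was -5.70 (SE 0.446, adjusted p = 7.39e-05), and the level was at least 37-fold lower against the weakest detected signal of each array. The call held under all 16 alternatives, with differences from -6.22 to -3.42. The other probe of the gene was near background on all 6 arrays (4.47 to 4.83), so it neither shares nor contradicts the difference.

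Vars, the valyl-tRNA synthetase gene that is the next tested gene along the chromosome, was 8.79, 8.24 and 8.89 with anti-CTLA4 and 9.71, 10.69 and 9.64 without. All 3 anti-CTLA4 values lay under the lowest of the 12 other arrays (9.37), although the difference of -1.38 (SE 0.362) did not pass (adjusted p = 0.337). To see how far this reached, the genes of the MHC from Kifc1 to H2-Q10 were taken in map order from RefSeq (GRCm38.p6), a region chosen after its values were seen. Of its 155 genes 82 were tested, and 15 of them did not overlap between the groups (18.3%, against 10.3% of all features), 6 higher and 9 lower. At an unadjusted p under 0.05 there were 11 (13.4%, against 7.76%), and the median difference of the region was 0.05. Away from the MHC, the other 526 tested genes of chromosome 17 had 61 without overlap (11.6%).

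**Figure D2:**
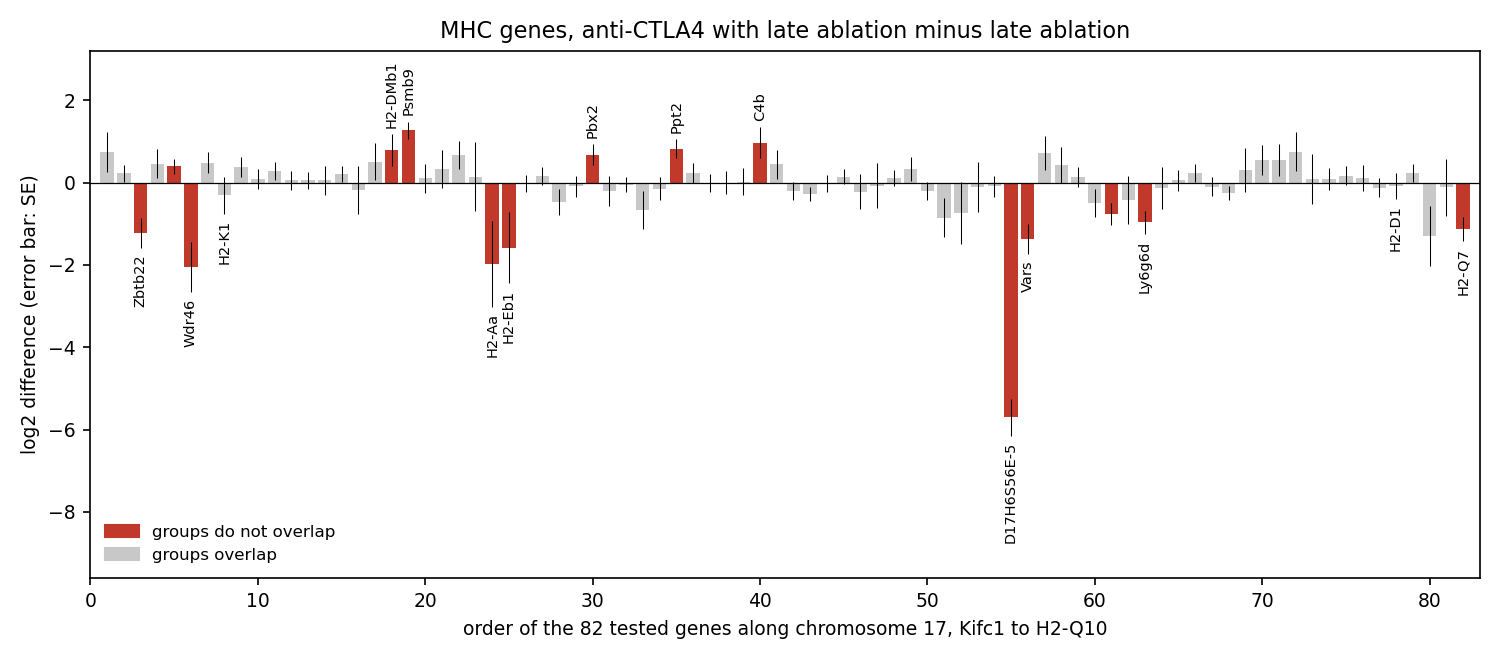
Log2 difference with its SE for the 82 tested MHC genes in map order, with bars in red where the 3 anti-CTLA4 and the 3 late ablation values do not overlap. The 15 red bars are interspersed with grey ones, and both directions occur, from -5.70 at D17H6S56E-5 to 1.27 at Psmb9.

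The lower genes of the region were spread from end to end. Wdr46, which serves ribosome assembly in the nucleolus, was undetected with anti-CTLA4 (4.33, 4.70 and 4.65) and at 6.26, 7.65 and 5.93 without it (-2.05, SE 0.616, adjusted p = 0.404, at least 2.8-fold). Early control arrays 2 and 3 were as dim for Wdr46 (4.54 and 4.76), so its absence was shared with arrays of the other table. Zbtb22 (-1.22, adjusted p = 0.404), Ly6g6d (-0.97, adjusted p = 0.394), Mpig6b (-0.76, adjusted p = 0.516) and the class Ib gene H2-Q7 (-1.13, adjusted p = 0.345) also lay wholly under late ablation. H2-Q7 was 6.78, 7.37 and 7.14 with the antibody and 7.57, 8.64 and 8.47 without. On the higher side stood Ppt2, a lysosomal thioesterase, at 6.09, 6.08 and 6.12 against 5.25, 5.30 and 5.30 (0.82, SE 0.235, adjusted p = 0.366), above all 12 other arrays. C4b, the complement component, was 9.24, 9.77 and 10.46 against 8.53, 8.83 and 9.20 (0.97, adjusted p = 0.548), and Pbx2, a homeobox factor, differed by 0.68 (adjusted p = 0.52).

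The class II genes parted from one another on the same arrays. H2-Eb1, the E beta chain, was 4.79, 4.76 and 4.85 with anti-CTLA4 and 5.50, 7.55 and 6.09 without. It was undetected on all 3 anti-CTLA4 arrays and detected on all 12 others, with a difference of -1.58 (SE 0.869, adjusted p = 0.686). H2-Aa, the A alpha chain, was 5.22, 4.68 and 5.07 against 5.47, 8.60 and 6.81 (-1.98, SE 1.04, adjusted p = 0.676), detected on 1 anti-CTLA4 array. H2-Ab1, the A beta chain that pairs with H2-Aa, was 10.26, 7.52 and 7.67 against 7.81, 9.02 and 8.21. Cd74, the invariant chain that accompanies class II through the cell, was 11.71, 8.90 and 8.98 against 7.98, 9.32 and 8.50 (1.27, SE 0.941). Anti-CTLA4 array 1 thus stood above 10 of the 12 other arrays for both H2-Ab1 and Cd74, but above only 2 of them for H2-Aa and above none for H2-Eb1. Early control arrays 2 and 3 showed a related split, with Cd74 at 11.50 and 10.82, H2-Aa at 5.17 and 4.43, and H2-Eb1 bright at 8.99 and 8.29. Both groups carry the same label of genetic background, and whether MHC alleles differ between these animals was not tested.

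**Figure D3:**
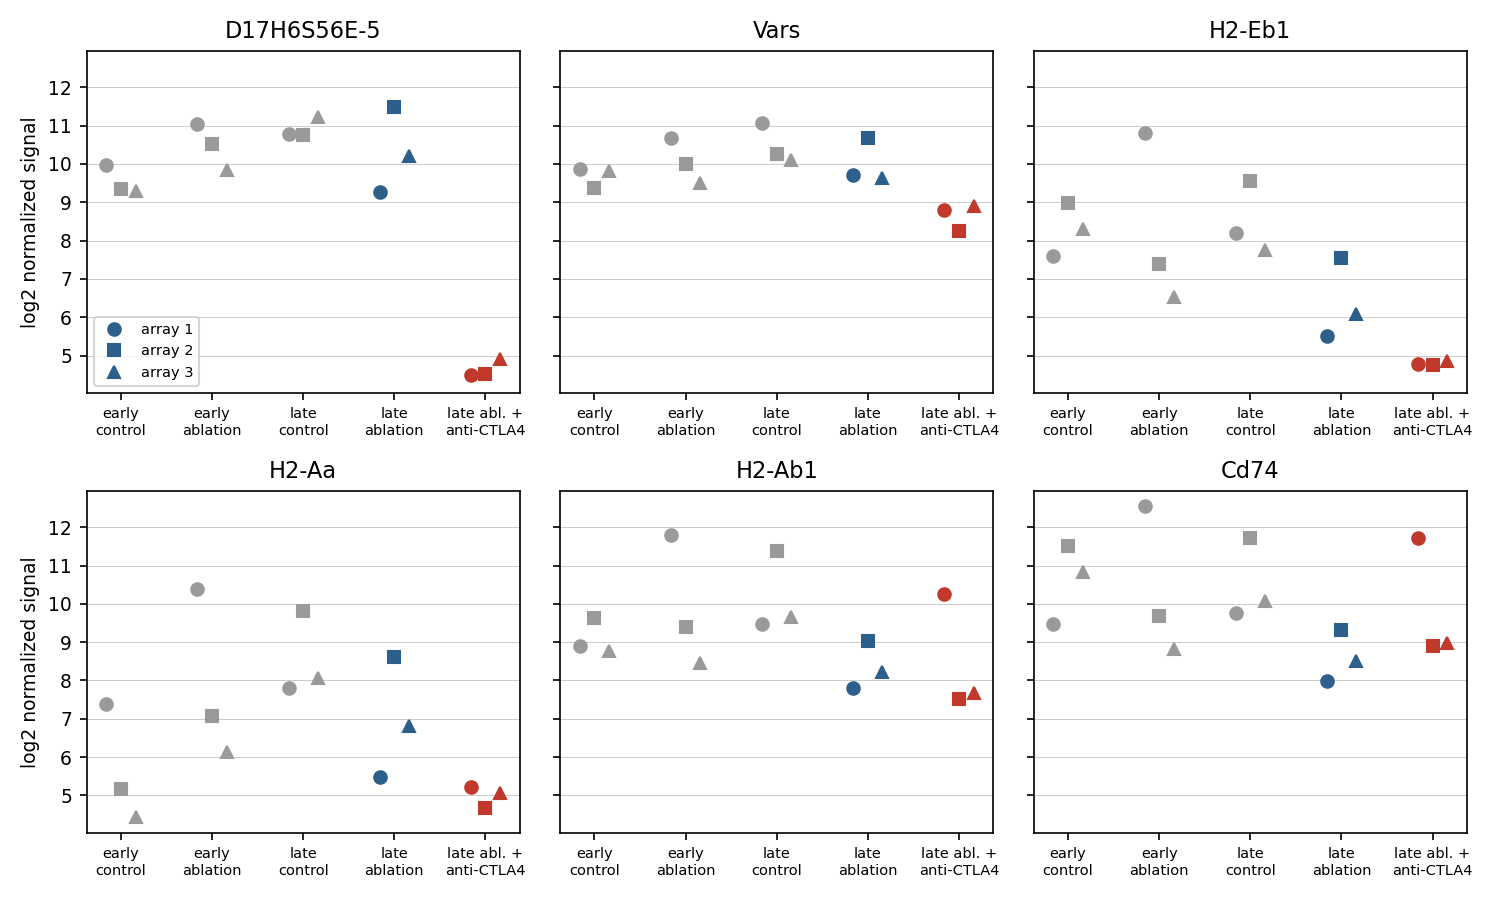
Log2 normalized signal of 6 MHC-linked or class II genes on all 15 arrays, by group, with the symbol giving the array number. On the anti-CTLA4 arrays D17H6S56E-5 and H2-Eb1 lie between 4.49 and 4.90, under all 12 other arrays, while array 1 is among the highest for H2-Ab1 (10.26) and Cd74 (11.71).

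Over the list of 10 tested class II genes the median difference was 0.01, with 5 higher, 5 lower and 0 called. H2-DMb1, a chain of the peptide exchange factor DM, was 8.14, 7.57 and 7.58 with anti-CTLA4 and 7.19, 6.80 and 6.93 without (0.79, adjusted p = 0.656), so the groups did not overlap. The list's level, the mean of its genes each centred over the 15 arrays, was -0.12, -1.02 and -0.89 with the antibody and -0.85, -0.06 and -0.80 without, so array 1 was again apart.

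Psmb9, the interferon-induced beta subunit that replaces a constitutive one in the immunoproteasome, had the smallest adjusted p of the named genes that were higher, apart from Ehmt1. It was 8.78, 8.46 and 8.30 with anti-CTLA4 and 7.45, 7.30 and 7 without. The highest late ablation value lay well under the lowest anti-CTLA4 value, and the difference was 1.27 (SE 0.206, adjusted p = 0.071), which passed with array weights, with no detection filter and in the authors' series values. The late control arrays averaged 8.20 ± 0.168 (SD, n = 3), above the late ablation mean of 7.25, so that late control lay nearer to the anti-CTLA4 arrays. Psmb10, another immunoproteasome subunit, was 10.43, 10.27 and 10.34 against 9.48, 10.06 and 9.59 (0.63, SE 0.212, adjusted p = 0.482). Psme2 of the proteasome activator PA28 was 8.29, 8.61 and 8.68 against 8.22, 7.99 and 8.08 (0.43), also without overlap. Tap2, a chain of the peptide transporter into the endoplasmic reticulum, was 8.95, 9.17 and 8.42 against 7.64, 8.38 and 8.50 (0.67). Its partner chain Tap1 differed by 0.10 and the immunoproteasome subunit Psmb8 by 0.32. The class I heavy chains H2-K1 and H2-D1 differed by -0.31 and -0.08. The groups overlapped for Tap2 and for each of these. B2m, the light chain of class I, was 12.37, 12.14 and 12.03 against 12.40, 12.38 and 12.15, so that the light chain overlapped between the groups. Of 22 tested genes of class I presentation and the immunoproteasome, 14 were higher and 8 lower, with a median of 0.14 and 0 called. Without overlap were 3 higher and 1 lower, where 5.01% and 5.31% of all features had no overlap in those directions.

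Of 27 interferon response genes 19 were higher and 8 lower, with a median of 0.21 and 0 called. Ifi27, an interferon-induced mitochondrial protein, was 11.60, 11.37 and 11.01 with anti-CTLA4 and 10.23, 11.05 and 9.82 without (0.96, SE 0.292, adjusted p = 0.418). Zbp1, a sensor of nucleic acid, was 6.37, 6.14 and 6.54 against 5.75, 6.21 and 5.60 (0.49, adjusted p = 0.599). The groups overlapped for both. In the whole list 0 genes were higher without overlap and 1 was lower, against 5.01% and 5.31% of all features. The list's level was 0.29, 0.03 and -0.61 against -0.62, 0.15 and -0.38, so the arrays of the groups interleaved, and the median was -0.04 without late ablation array 1.

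T cell transcripts were sparse in both groups, which limits what these arrays can show of the antibody's target cells. Cd4, Cd8a, Gzmb and Ifng did not pass the filter on detection and were detected on none of the late ablation arrays and on at most 1 anti-CTLA4 array each. Ctla4 itself was 4.94, 4.74 and 5.15 with the antibody and 4.42, 5.41 and 4.57 without, detected on 1 array of each group. Cd3e of the T cell receptor complex was 4.87, 4.51 and 4.71 against 4.75, 5.15 and 4.89 and was detected on 1 late ablation array. The brightest probe of Cd8b1, the CD8 beta chain, was at 11.03, 10.40 and 10.48 against 9.98, 10.92 and 9.22, although Cd8a was dim. The other Cd8b1 probes were near background on these arrays, between 4.44 and 5.46, so the bright signal rests on a single probe. Of 11 tested T cell genes 5 were higher and 6 lower, with a median of 0 and 0 called.

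Among 22 regulatory T cell and checkpoint genes 13 were higher and 9 lower (median 0.12, 0 called). Cd86, a ligand shared by CD28 and CTLA4 on antigen-presenting cells, was 7.90, 6.96 and 8.14 with anti-CTLA4 and 6.56, 7.15 and 6.81 without (0.83, SE 0.319, adjusted p = 0.549), with array 2 inside the late ablation range. Havcr2, which encodes the checkpoint receptor TIM-3, was 6.72, 6.29 and 6.03 against 5.95, 5.53 and 5.57 (0.66, adjusted p = 0.598). Pdcd1, which encodes PD-1, was 5.44, 5.21 and 5.19 against 4.96, 4.61 and 4.72, detected on all 3 arrays with the antibody and on none without it (adjusted p = 0.671), and it too passed the filter through the anti-CTLA4 arrays. Neither gene overlapped between the groups. Across the list 3 genes were higher without overlap and 1 was lower, against 5.01% and 5.31% of all features. Foxp3, the factor of regulatory T cells, was 9.09, 9.10 and 9.43 against 9.06, 9.06 and 8.77 on its brightest probe, narrowly without overlap. The other Foxp3 probes were near background on the 6 arrays, between 4.41 and 5.32, so the bright signal rests on a single probe. Cd274, which encodes PD-L1, was 6.77, 6.10 and 5.74 against 6.20, 5.39 and 7.10. The Cd274 values of the groups were interleaved.

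Among myeloid and B cell lists 0 genes were called. Ptprc, a marker of leukocytes in general, was undetected on the anti-CTLA4 arrays (4.49 to 4.82). On the late ablation arrays it was 5.01 to 5.55 and detected on 2. The Ptprc values thus lay near background without overlap, as for 10.3% of all features. Of 27 macrophage genes 17 were higher (median 0.21, and 0 without late ablation array 3). Trem2, a lipid-sensing receptor of tumour macrophages, was 8.63, 8.57 and 9.26 with anti-CTLA4 and 8.73, 8.01 and 7.80 without (0.64, adjusted p = 0.663), and Cx3cr1, the fractalkine receptor, was 7.75, 7.10 and 7.04 against 6.03, 6.99 and 6.01 (0.95, adjusted p = 0.686). Of 8 B and plasma cell genes 5 were higher (median 0.25), among them Spib, a B cell transcription factor, at 5.08, 6.27 and 5.47 against 5.21, 4.61 and 4.61. Ltf, the lactoferrin gene of neutrophil granules and glands, was 11.71, 12.38 and 11.27 against 10.13, 10.36 and 10.80 (1.36, SE 0.615, adjusted p = 0.631), without overlap. The granule gene Camp was bright on anti-CTLA4 array 2 alone at 9.74, with 4.49 and 6.80 on arrays 1 and 3 and 4.70 to 5.52 on the late ablation arrays, so its difference of 2.00 rested on that array and was 0.63 without it. Of 22 genes of neutrophils and acute inflammation 12 were higher and 10 lower (median 0.13). Dendritic cell genes were evenly split (4 of 8 higher, median -0.05), as were mast cell genes (4 of 8 higher, median -0.03).

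Chemokine genes were evenly split (12 of 24 higher, median -0.01, 0 called). Ccl20, a ligand for CCR6 on lymphocytes and dendritic cells, was 5.68, 6.94 and 4.87 with anti-CTLA4 and 4.50, 4.81 and 4.4 without (1.26, SE 0.465, adjusted p = 0.527), detected on 2 arrays and on 0. Ccl25, a ligand for CCR9, was 4.46, 5.45 and 5.25 against 6.18, 5.45 and 6.37 (-0.94, adjusted p = 0.552). In the complement list C8g, the gamma chain of C8, was higher at 6.32, 6.07 and 6.38 against 5.58, 5.80 and 5.56 (0.61, adjusted p = 0.422). The brightest probe of C1s1, the C1s protease, was undetected with the antibody (4.68, 4.72 and 4.77) and at 6.31, 5.39 and 5.15 without (-0.90, adjusted p = 0.433). Its other probe was 4.42, 5.01 and 5.50 against 5.73, 4.49 and 4.61, so the groups overlapped there. The list as a whole had 8 genes higher and 12 lower (median -0.10).

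**Figure D4:**
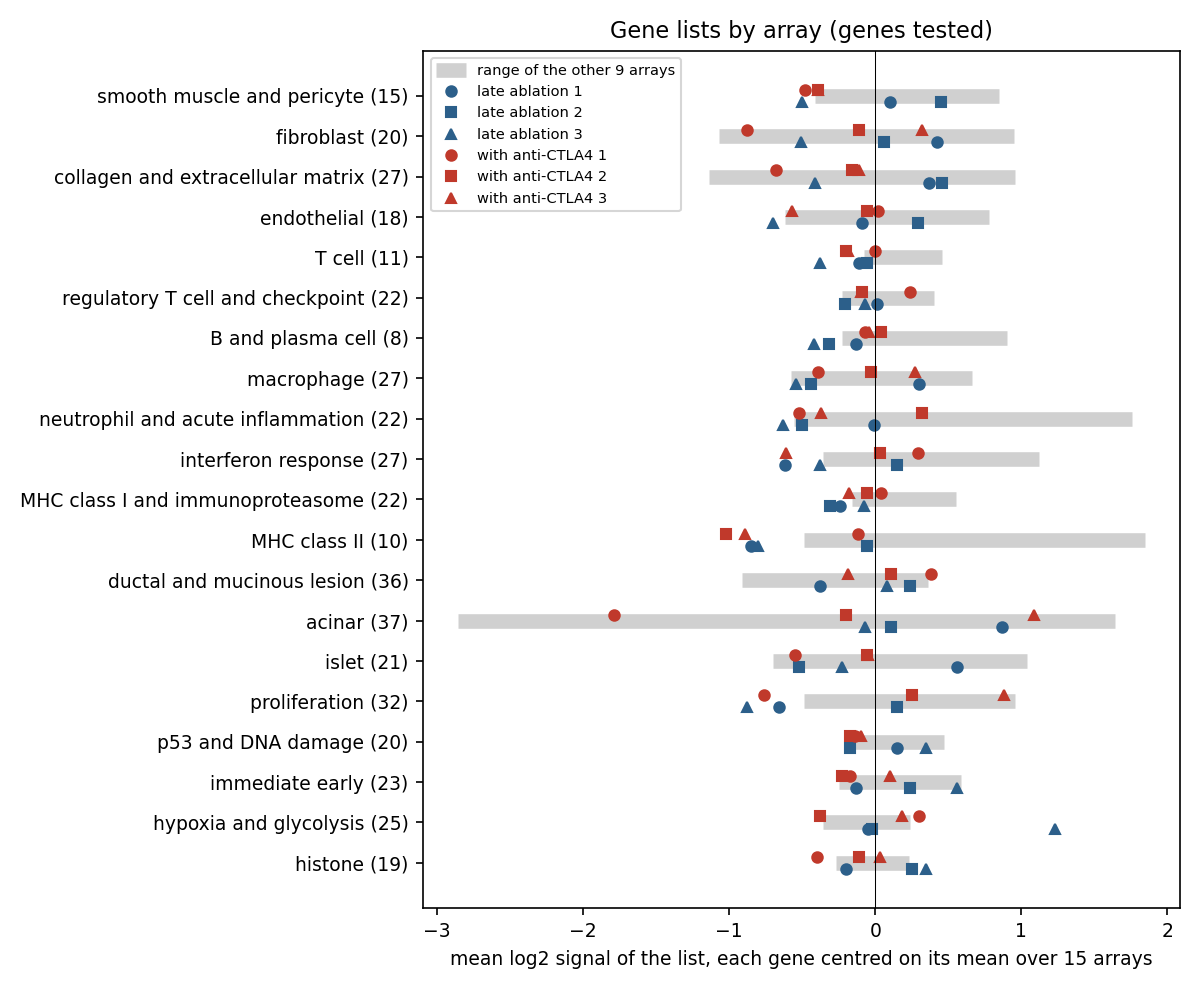
Level of 20 gene lists on each array, as the mean of the list's genes after each was centred on its mean over the 15 arrays, with late ablation in blue, anti-CTLA4 in red and the range of the other 9 arrays as a grey bar. Acinar genes run from -1.79 to 1.09 among the anti-CTLA4 arrays alone, and proliferation genes from -0.76 to 0.88.

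Smooth muscle and matrix genes were mostly lower with the antibody. Of 15 smooth muscle and pericyte genes 13 were lower (median -0.47), of 27 collagen and matrix genes 23 were lower (median -0.33), and of 20 fibroblast genes 12 were lower (median -0.09), with 0 called in each list. Thbs2, the matrix glycoprotein thrombospondin 2, was 9.04, 9.97 and 9.91 with anti-CTLA4 and 11.31, 10.99 and 10.96 without (-1.45, SE 0.503, adjusted p = 0.515). Mmp14, a membrane collagenase, was 11.34, 11.57 and 11.65 against 11.92, 12.71 and 12.14 (-0.74, adjusted p = 0.549). Col1a2, the alpha 2 chain of type I collagen, was 5.77, 5.92 and 6.48 against 7.89, 8.86 and 6.54 (-1.70, SE 0.727, adjusted p = 0.599), under all 12 other arrays. Col1a1, the other chain of the same fibril, was 9.02, 8.78 and 9.59 against 10.14, 9.70 and 8.77, so that the groups overlapped. Mylk, the myosin light chain kinase, was 7.57, 8.03 and 8.17 against 9.55, 9.55 and 7.99 (-1.10, adjusted p = 0.557), while Rgs5, a pericyte gene, was 7.60, 6.72 and 7.40 against 6.01, 6.88 and 5.90 (0.98, adjusted p = 0.519). Lum, a collagen-binding proteoglycan, was 5.62, 6.85 and 7.28 against 9.32, 7.65 and 7.44 (-1.56), and Fbln1, a matrix glycoprotein of fibroblasts, was 8.39, 8.88 and 9.06 against 7.65, 8.92 and 7.23 (0.85). The level of the smooth muscle list was -0.48, -0.39 and -0.39 with the antibody and 0.10, 0.45 and -0.50 without, so late ablation array 3 lay with the anti-CTLA4 arrays. With each array left out in turn, the medians stayed below 0, from -0.59 to -0.29 for smooth muscle and from -0.57 to -0.20 for collagen and matrix. The fibroblast median changed sign, to 0.14 without anti-CTLA4 array 1 and 0.15 without late ablation array 1, and was -0.39 without late ablation array 3 and -0.37 without anti-CTLA4 array 3.

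The exocrine remnant varied more between arrays than between groups. Of 37 acinar genes 28 were lower (median -0.77), but the list's level was -1.79, -0.20 and 1.09 with anti-CTLA4 and 0.87, 0.11 and -0.07 without, so both groups overlapped widely. The median was 0 without anti-CTLA4 array 1, -0.15 without late ablation array 1 and -1.66 without anti-CTLA4 array 3. The summed normalized signal of these genes was 66879, 124061 and 198811 with the antibody and 183972, 150011 and 110355 without. Against that background Nr5a2, a nuclear receptor of acinar cells, was 8.44, 8.27 and 8.85 with anti-CTLA4 and 7.45, 7.05 and 6.64 without. It lay above all 12 other arrays (at most 7.88), with a difference of 1.47 (SE 0.315, adjusted p = 0.189). Spink1, a secreted trypsin inhibitor, was 8.05, 9.49 and 10.76 against 9.69, 6.95 and 6.25 (1.80, adjusted p = 0.615). Among 21 islet genes 14 were lower (median -0.14). Gcg, the glucagon gene, was 7.19, 6.40 and 7.70 against 11.57, 7.65 and 8.77 (-2.23, SE 1.06, adjusted p = 0.648), and Ghrl, the ghrelin gene, was 6.82, 9.54 and 7.01 against 7.22, 4.51 and 4.68 (2.32, SE 1.16, adjusted p = 0.661).

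Of 36 ductal tumour genes 24 were higher and 12 lower, with a median of 0.08 and 0 called. Krt19, a duct keratin, was 13.81, 13.24 and 13.16 with anti-CTLA4 and 13.37, 13.90 and 13.72 without (-0.26, adjusted p = 0.829). Pigr, which carries immunoglobulin A across epithelium, was 11.14, 10.67 and 10.26 against 8.32, 10.36 and 9.05 (1.45, SE 0.573, adjusted p = 0.555). Cldn4, a tight junction claudin, was 11.82, 11.23 and 11.64 against 12.58, 12.25 and 12.61 (-0.92, adjusted p = 0.557). Tff3, a secreted trefoil peptide, was 7.72, 7.18 and 7.20 against 8.09, 9.61 and 9.03 (-1.54, adjusted p = 0.598). Ceacam1, an adhesion receptor that also binds TIM-3, was 11.75, 10.99 and 10.63 against 9.92, 10.40 and 9.26, above all 12 other arrays (1.27, SE 0.637, adjusted p = 0.663). The Cldn4, Tff3 and Ceacam1 values did not overlap between the groups.

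Proliferation genes were higher in 30 of 32 cases (median 0.50) with 0 called. Their level was -0.76, 0.25 and 0.88 with anti-CTLA4 and -0.66, 0.15 and -0.88 without, so that array 1 lay with late ablation arrays 1 and 3. The median ran from 0.23 without anti-CTLA4 array 3 to 0.89 without array 1. Tk1, a thymidine kinase of S phase, was 8.96, 8.76 and 9.33 against 7.86, 8.33 and 8.12 (0.91, SE 0.389, adjusted p = 0.599), and it was the only 1 of the 32 genes without overlap, against 10.3% of all features. Cdc20, an activator of the anaphase-promoting complex, was 6.58, 8.95 and 10.02 against 6.89, 8.31 and 6.62 (1.25, adjusted p = 0.709).

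Stress and growth arrest genes were more often lower, with 0 called. Of 20 p53 and DNA damage genes 15 were lower (median -0.18), among them Gadd45a, a growth arrest gene, at 8.95, 8.96 and 8.43 with anti-CTLA4 and 9.56, 9.54 and 9.86 without. On this probe Gadd45a lay under all 12 other arrays (-0.87, SE 0.239, adjusted p = 0.345). Its other probe was 8.98, 8.69 and 8.23 against 9.36, 8.85 and 9.01, so the groups overlapped there. Of 23 immediate early genes 15 were lower (median -0.42), among them Ccn1, a matricellular target of YAP, at 5.85, 6.33 and 7.34 against 7.14, 8.05 and 7.61 (-1.10, adjusted p = 0.511). Of 25 hypoxia and glycolysis genes 21 were lower (median -0.28), where late ablation array 3 stood apart with a list level of 1.23 against -0.38 to 0.30 on the other 5 arrays. Without that array the median was 0.02 for the hypoxia list and -0.09 for the immediate early list, which was -0.12 without anti-CTLA4 array 1. Adm, the adrenomedullin gene, was 9.95 on that array and 5.08 to 6.18 on the other 5, so its difference of -1.75 was -0.39 without it. Of 19 histone genes 17 were lower (median -0.41, and -0.15 without late ablation array 3).

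The named genes with the smallest p on the higher side were Ehmt1, Psmb9 (above), Cdc25c, Ino80d, Cbx5, Kat6a and Pcsk5. Ehmt1, which methylates histone H3, was 6.37, 6.83 and 6.54 with anti-CTLA4 and 5.36, 4.46 and 4.70 without (1.74, SE 0.256, adjusted p = 0.0708). Ino80d, a subunit of the INO80 remodeller, was 7.26, 7.51 and 7.48 against 5.91, 4.4 and 4.45 (2.49, SE 0.429, adjusted p = 0.0796). Both were detected on all 3 anti-CTLA4 arrays and on 1 late ablation array. Cbx5, the heterochromatin protein HP1 alpha, was 6.97, 7.18 and 7.32 against 6.18, 5.99 and 5.77 (1.18, SE 0.211), and Kat6a, a histone acetyltransferase, was 5.95, 5.92 and 6.11 against 5.28, 4.55 and 4.49 (1.22, SE 0.22). Pcsk5, a proprotein convertase, was 6.25, 5.63 and 5.32 against 4.46, 4.52 and 4.49 (1.24, SE 0.225), undetected on every late ablation array. Cdc25c, the phosphatase that opens mitosis, was 5.35, 5.72 and 5.78 against 4.65, 4.53 and 4.71 (0.99) and was detected on none of the 12 other arrays. The adjusted p of these last 4 was 0.0796, and all 6 lay above all 12 other arrays. Cdc25c, Pcsk5, Kat6a and Ino80d were detected on fewer than 3 of those 12 and so passed the detection filter through the anti-CTLA4 arrays, which favours a difference in this direction. Pik3r1, the regulatory subunit of PI3 kinase, was the bright member of the set at 11.68, 11.43 and 10.97 against 10.60, 10.25 and 10.27 (0.99, SE 0.203, adjusted p = 0.169).

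**Figure D5:**
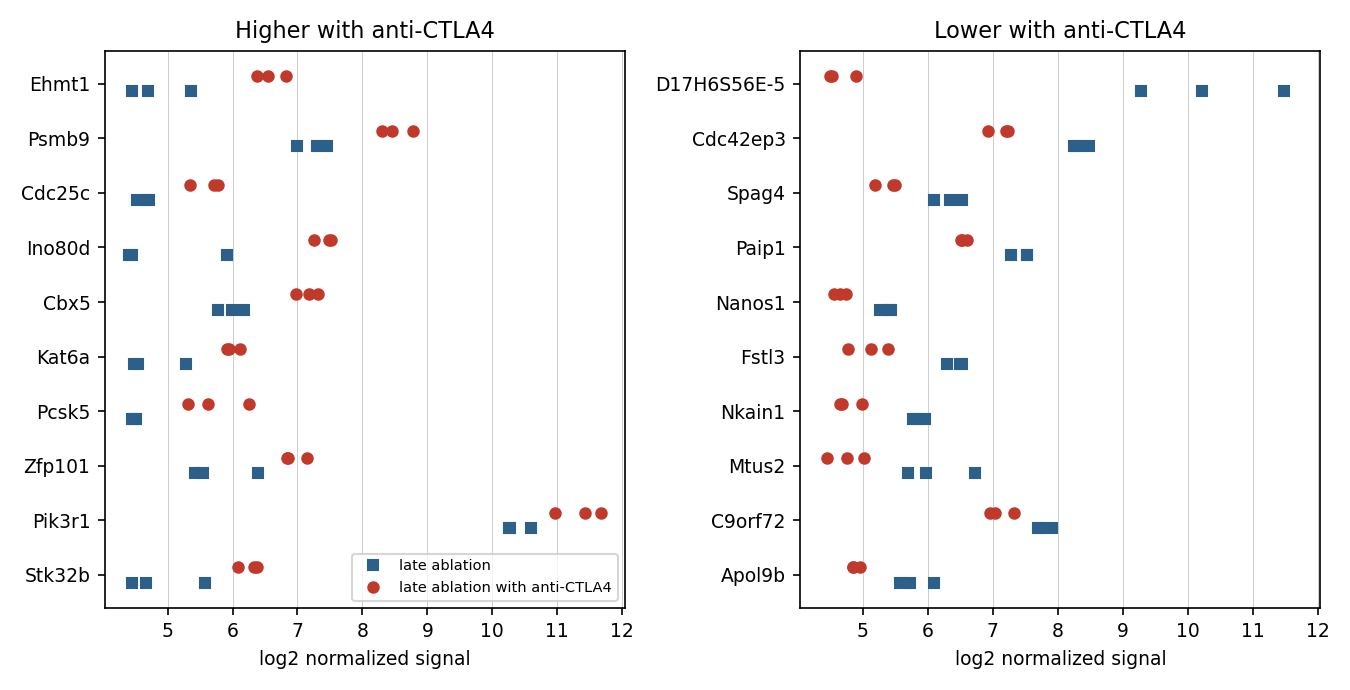
Log2 normalized signal on the 3 late ablation arrays (blue squares) and the 3 anti-CTLA4 arrays (red circles) for the 10 named genes with the smallest p in each direction. The groups are separate for all 20 genes, which the choice by p favours, and D17H6S56E-5 has the widest gap.

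Outside the MHC, the lower genes with the smallest p were Cdc42ep3, an effector of the GTPase CDC42, at 6.93, 7.23 and 7.21 with anti-CTLA4 and 8.25, 8.48 and 8.32 without (-1.22, SE 0.25, adjusted p = 0.169), and Spag4 at 5.18, 5.49 and 5.46 against 6.09, 6.34 and 6.53 (-0.94, adjusted p = 0.169). Paip1, a partner of the poly(A)-binding protein, was 6.6, 6.53 and 6.51 against 7.53, 7.28 and 7.53 (-0.90, adjusted p = 0.202). Fstl3, an inhibitor of activin, was 4.77, 5.12 and 5.38 against 6.49, 6.29 and 6.53 (-1.34, adjusted p = 0.214). These genes did not overlap between the groups, and all but Paip1 lay under all 12 other arrays.

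Detection on all 3 arrays of one group and on none of the other occurred for 47 features with anti-CTLA4 (0.311%) and for 78 with late ablation (0.517%). After D17H6S56E-5 the widest bound was that of Ly6k, a surface protein of the Ly6 family, undetected at 4.76, 5.01 and 4.66 with anti-CTLA4 and at 6.41, 7.39 and 7.30 without, at least 3.76-fold lower (adjusted p = 0.366). Slc3a2, the heavy chain of amino acid transporters, was 4.80, 5.09 and 5.10 against 5.14, 6.75 and 6.91 (at least 2.2-fold lower). Pgf, the placental growth factor gene, was 4.63, 4.48 and 4.94 against 5.64, 5.10 and 7.38 (at least 1.89-fold lower). In the other direction Zfp52, a zinc finger gene, was 6.07, 6.84 and 6.68 against an undetected 4.53, 5.02 and 4.64 (at least 2.76-fold higher, adjusted p = 0.345), and Hoxc10 was 5.97, 5.63 and 5.58 against 5.02, 4.53 and 4.91 (at least 1.58-fold higher). None of these 5 passed.

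Against all 12 arrays of the other table, 155 features lay wholly above (1.03%) and 181 wholly below (1.2%) on the anti-CTLA4 arrays. The same count for the other groups, each against the remaining 12 arrays, was 206 above and 307 below in early control. Early ablation had 56 and 52, late ablation 17 and 21, and late control 4 and 6. The anti-CTLA4 arrays thus stood further from the rest than late ablation did and less far than early control, and the part of the separate table in that distance cannot be told apart from the antibody. The 7 tested mitochondrially encoded transcripts were all higher (median 0.40) with 0 called. CYTB, a subunit of respiratory complex III, was 14.89, 14.73 and 14.86 with anti-CTLA4 and 14.47, 14.48 and 14.54 without (0.33, SE 0.162, adjusted p = 0.656). Of 27 nuclear respiratory chain genes 17 were higher (median 0.07), of 23 ribosomal protein genes 15 (median 0.07) and of 14 housekeeping genes 4 (median -0.12). Probes of the housekeeping gene Actb parted, with the brightest at 14.58, 14.31 and 14.24 against 14.24, 14.69 and 14.52. ILMN_2588055 was 8.21, 9.07 and 8.71 against 6.81, 4.76 and 5.70. ILMN_2846865 and ILMN_1377923 were also higher without overlap, while ILMN_2617433 overlapped. The cause was not tested.

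Over the 656 distinct genes tested in any of the 39 lists, 41 had an unadjusted p under 0.05 (6.25%, against 7.76% of all features) and 1, D17H6S56E-5, was called. For markers of other tissues the median difference was 0.02 over 14 hepatocyte genes, -0.29 over 5 skeletal muscle genes, 0.03 over 6 adipocyte genes, 0.05 over 12 brush border genes and -0.05 over 6 erythrocyte genes. It was -0.26 over 5 mesothelial genes and -0.15 over 4 nerve and Schwann cell genes, and 0 genes of these 7 lists were called. The summed signal of the erythrocyte genes was 6510, 11248 and 11935 with anti-CTLA4 and 33468, 4105 and 7054 without, so late ablation array 1 held the most. The part of such differences in the results above was not tested.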

How the data were processed

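Total RNA of mouse pancreatic tumours was hybridised to Illumina bead arrays, 3 per group in 5 groups. The authors deposited the unnormalized mean bead intensity and a detection p-value for each probe and array, exported with GenomeStudio per the labels' protocols, in one table of 12 arrays and another of 3. A series table of normalized intensity that the authors also deposited served as an alternative, and its scale and centring are not stated.

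Signals of all 15 arrays were background-corrected together by normexp from the detection p-values (offset 16), quantile normalized and log2 transformed with limma 3.58.1 in R 4.3.3. Features were kept if detected (p-value under 0.05) by 3 or more arrays. The brightest probe was kept per symbol, and probes without a symbol stayed as single features. Of 45281 probes, 34885 had 1 symbol, 18 had several and 10378 had none in the platform annotation. A model of group means with lmFit and eBayes over 15 arrays gave the contrast, and adjusted p-values are Benjamini-Hochberg over 15098 features with a threshold of 0.05. A bound ("at least") compares the detected group's mean with the weakest detected signal of each array of the other group or the probe's own value, whichever was higher. The number of arrays limits the precision. The code was tested on simulated data.

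Named genes were those with the smallest p in each direction, those past the threshold, those detected in only one group, those outside the 12 other arrays, the members of each list with the smallest p or highest level, and fixed genes such as Acta2 and Ctla4. Other members named were chosen after their values were seen. The members and the 39 gene lists were chosen with earlier results of these data known. Same-numbered arrays of the compared groups did not deviate together (correlations of -0.276, -0.232 and -0.117). Array 1 nevertheless had the lowest median unnormalized signal in both groups (95.2 with anti-CTLA4 and 99 without). Whether the numbers mark a shared step was not tested. The alternatives were other normalization, background and filter settings, array weights, the authors' values, every probe, only the 6 arrays, a replicate block and leaving out each array.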

Additional observations from a re-analysis of the deposited data

How the results depend on the processing

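D17H6S56E-5 was called under all 16 alternatives. The count of called features was 2 with median scaling, 2 with no background correction, 7 with no detection filter, 18 with array weights, 2 with the authors' values and 5 with every probe as a feature, and 1 to 9 when 1 array was left out (6 without anti-CTLA4 array 1, 9 without late ablation array 1, 1 otherwise). The count at an unadjusted p under 0.05 was 2402 with no detection filter, 655 with only the 6 arrays, 2100 with array weights and 846 to 1662 with 1 array left out. Features without overlap numbered 3362 with no detection filter and 2459 to 3925 with 1 array left out, where fewer arrays make separation easier. With the replicate number as a block 1 feature was called and 1198 had an unadjusted p under 0.05, so the replicate block changed no call. Acta2 never passed, with differences from -1.49 to -0.22. The direction of Ctla4 turned with array weights (-0.02) and without late ablation array 1, with a range of -0.05 to 0.45 over the arrays left out. That of H2-Ab1 turned with array weights (-0.65), without anti-CTLA4 array 1 (-0.75) and without late ablation array 1 (-0.13), in a range up to 0.62. That of Cd274 turned with the authors' values (0.04) and without anti-CTLA4 array 2 (0.02), anti-CTLA4 array 3 (0.20) or late ablation array 3 (0.41), in a range from -0.45. The cause was not tested. Of 1715 pairs of a named gene and an alternative, 1688 kept direction and side of the threshold. Genes near background, among them most T cell genes, are beyond what these arrays can compare.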

Other observations

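Probes without a gene symbol made up 21% of the features tested but 95 of the 209 with a difference over 1 and 16 of the 18 over 2, against 33 of the 174 under -1. The probe ILMN_1259069 was 10.77, 9.67 and 11.36 with anti-CTLA4 and 7.66, 8.19 and 7.75 without (2.73, SE 0.749, limma adjusted p = 0.345). ILMN_2538242 was 9.30, 8.77 and 10.80 against 6.53, 7.41 and 6.46 (2.82, limma adjusted p = 0.348). On the lower side ILMN_1247996 was 11.79, 11.67 and 10.45 against 13.56, 13.18 and 12.92 (-1.92, SE 0.307, limma adjusted p = 0.071), and ILMN_2810539 was 5.37, 4.77 and 5.06 against 7.36, 8.23 and 7.75 (-2.72, SE 0.43, limma adjusted p = 0.071). Both lower probes lay under all 12 other arrays. These probes were chosen after their values were seen, and what they target is not known here.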
